A study of Mus musculus with 7 samples.

Results

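Csf1r, Csf1 and Il34, which encode a receptor tyrosine kinase and its ligands, were examined in the retinal pigment epithelium (RPE) of aged mice. All 3 rows were found among the 21861 rows of the deposited count table, each on 1 row only. Csf1r was chosen from its measured values: in an earlier analysis of these libraries it was higher after AAV-GSTA4 while other macrophage genes were lower. The difference between the groups in the 3 genes is therefore given as a description, with no test.

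CSF1R is the receptor through which macrophages, microglia and their precursors receive survival, growth and differentiation signals. Its ligands, CSF1 (macrophage colony-stimulating factor) and IL-34, bind the same receptor although their sequences are unrelated, and they are made in different places: in the retina, neurons are known as a source of IL-34. In the eye the receptor is best known from retinal microglia and choroidal macrophages, and its blockade depletes both.

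The RPE is the pigmented epithelium behind the photoreceptors. All 7 libraries came from aged mice that received an adeno-associated virus (AAV), and tissue was taken 12 weeks later. In 3 libraries, written AAV-GFP 1 to AAV-GFP 3 below, the vector carried GFP and serves as the control (titled Old-GFP). In 4 libraries, written AAV-GSTA4 1 to AAV-GSTA4 4, it carried GSTA4 (titled Old-GSTA4), a glutathione transferase that detoxifies products of lipid peroxidation. The comparison asks how GSTA4 altered the aged RPE transcriptome. Age in months, strain, sex, vector dose, promoter and the number of animals per library are not given in the sources used here, so p-values measure the spread between these libraries, and no untreated group was analysed here.

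The libraries held 15329181 to 28998964 counts. The hGSTA4 row, the transgene by its name, had 1 to 3 counts in the AAV-GFP libraries and 45 to 5239 in the AAV-GSTA4 libraries. The d2EGFP row, a GFP transgene by its name, had 99, 3970 and 2361 counts in AAV-GFP 1 to 3 and 163, 64, 7 and 26 in AAV-GSTA4 1 to 4, so AAV-GFP 1 lay below AAV-GSTA4 1. RPE genes were abundant in every library: Rpe65, the visual cycle isomerase, lay between 1767 and 11831 CPM. CPM values are on the counts-per-million scale after adjustment of library sizes by the trimmed mean of M-values (TMM). AAV-GFP 3 stood apart, with a mean correlation to the other libraries of 0.838 against 0.910 to 0.926 for the other 6, so results that rest on it are also given without it. The samples are bulk tissue, in which fewer cells of a type and less RNA per cell cannot be told apart. Across the 15075 genes tested with edgeR's quasi-likelihood test, 0 passed an adjusted threshold of 0.05 (0% called). Unadjusted p-values were under 0.05 for 1794 genes (11.9%), and DESeq2 called 167 genes after adjustment.

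Csf1r lies on chromosome 18 at positions 61100598 to 61132149, on the plus strand (GRCm38, gene ENSMUSG00000024621.16, protein-coding), with 5774 exon bases in GENCODE M21. It had 5545, 6202 and 2642 counts in AAV-GFP 1 to 3, or 258, 239 and 127 CPM. The counts of AAV-GSTA4 1 to 4 were 9882, 6055, 9658 and 11405, which gave 520, 291, 568 and 421 CPM. The groups did not overlap, and their nearest libraries were AAV-GFP 1, with a 95% Poisson interval of 252 to 265 CPM, and AAV-GSTA4 2, with 283 to 298 CPM. The intervals cover counting error only. Scaled to library totals alone, these libraries stood at 255 and 262 CPM.

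The mean of Csf1r was 208 CPM ± 71.1 (SD, n = 3) after AAV-GFP and 450 CPM ± 122 (SD, n = 4) after AAV-GSTA4, a ratio of 2.16 and a fitted log2 fold change of 1.11 ± 0.34 (SE). Since the gene was chosen on this contrast, nothing is read from its separation. Groups did not overlap in either direction for 12% of the genes tested, with 6.44% higher and 5.61% lower in AAV-GSTA4. Without AAV-GFP 3 the fold change was 0.85 on the log2 scale. Within AAV-GSTA4 the order of Csf1r was not that of the transgene: AAV-GSTA4 3 had the most Csf1r and only 45 hGSTA4 counts, whereas AAV-GSTA4 2 had the least Csf1r and 5239 hGSTA4 counts. Y-linked transcripts were present in AAV-GFP 1 and AAV-GSTA4 3 and 4 and near absent from the other libraries. Csf1r was at 421 and 568 CPM after AAV-GSTA4 and 258 CPM after AAV-GFP in the first class, and at 291 and 520 CPM against 127 and 239 CPM in the second, an order that the lack of overlap already fixes.

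**Figure D1:**
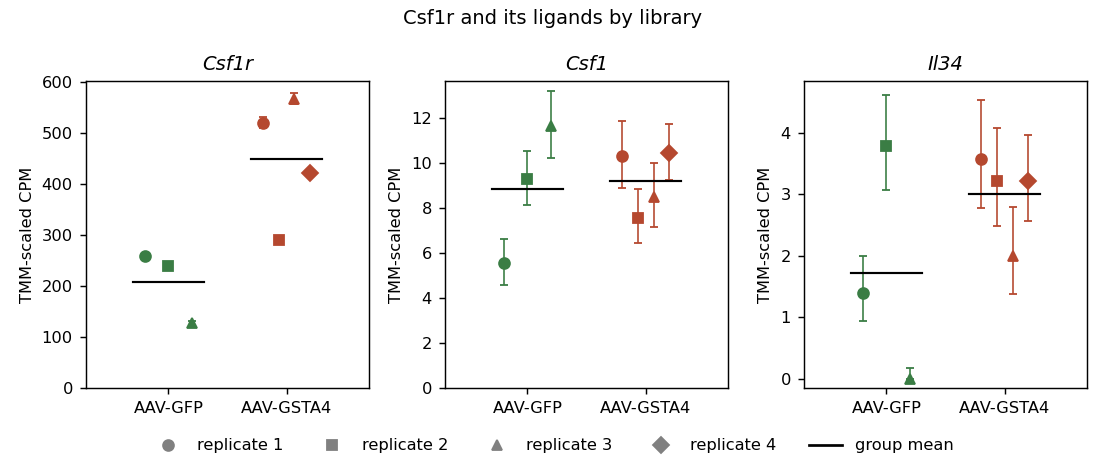
TMM-scaled CPM of Csf1r, Csf1 and Il34 in each of the 3 AAV-GFP and 4 AAV-GSTA4 libraries, with 95% Poisson intervals for counting error as bars (hidden by the marker where short) and the group mean as a line. The groups separate for Csf1r, between 258 and 291 CPM, and overlap for Csf1 and Il34. The lowest library of Il34, AAV-GFP 3, had 0 counts.

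Csf1, the more widely made ligand, lies on chromosome 3 at positions 107741048 to 107760469, on the minus strand (GRCm38, ENSMUSG00000014599.10). It had 119, 241 and 243 counts in AAV-GFP 1 to 3, or 5.55, 9.31 and 11.7 CPM. Counts in AAV-GSTA4 1 to 4 were 196, 158, 145 and 283, that is 10.3, 7.58, 8.52 and 10.4 CPM. The AAV-GFP libraries held both the lowest and the highest value, and all AAV-GSTA4 libraries lay between them. The means were 8.84 CPM ± 3.09 (SD, n = 3) and 9.21 CPM ± 1.40 (SD, n = 4), and the fitted log2 fold change of 0.06 ± 0.34 (SE) was smaller than its error. Its sign was not stable: with library totals in place of TMM it was -0.29, and without AAV-GFP 1 it was -0.18.

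Il34, the other ligand, lies on chromosome 8 at positions 110741829 to 110805924, on the minus strand (GRCm38, ENSMUSG00000031750.15). It had the fewest counts of the 3, with 30, 98 and 0 in AAV-GFP 1 to 3, or 1.40, 3.78 and 0 CPM. The 0 in AAV-GFP 3 allows a level of up to 0.144 CPM at the floor of 3 counts. AAV-GSTA4 1 to 4 held 68, 67, 34 and 87 counts, which equals 3.58, 3.21, 2.00 and 3.21 CPM. The highest library of all was AAV-GFP 2, so the groups overlapped. The means were 1.73 CPM ± 1.91 (SD, n = 3) and 3.00 CPM ± 0.690 (SD, n = 4), with a fitted log2 fold change of 0.79 ± 1.07 (SE). This value turned on single libraries: it was 0.20 without AAV-GFP 3 and 2.09 without AAV-GFP 2.

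A change of scaling moves all coefficients by similar amounts. The distance of a gene from the median of all genes tested therefore changes little by construction. That median was -0.07 with TMM and -0.37 with library totals on the log2 scale. Csf1r lay 1.18 above it with TMM and 1.24 above it with library totals, Il34 0.86 and 1.00 above it, and Csf1 0.13 and 0.08 above it.

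Per kilobase of exon, a rough basis for comparing genes, the receptor was far more abundant than either ligand. Lengths are unions of all annotated exons, so a gene whose union exceeds its transcript is set too low. Csf1r averaged 36.1 CPM per kb ± 12.3 (SD, n = 3) after AAV-GFP and 77.9 ± 21.2 (SD, n = 4) after AAV-GSTA4. Csf1 stood at 1.67 CPM per kb ± 0.585 (SD, n = 3) and 1.74 ± 0.265 (SD, n = 4). Il34 stood at 0.882 CPM per kb ± 0.977 (SD, n = 3) and 1.53 ± 0.352 (SD, n = 4). The lowest Csf1r library, at 22.0 CPM per kb, was above the highest library of either ligand, at 2.21 for Csf1 and 1.93 for Il34. The order of the ligands was not the same in every library: in the 6 libraries with Il34 counts the ratio of Csf1 to Il34 per kb ran from 0.875 to 1.58, and it was under 1 in AAV-GFP 2 and AAV-GSTA4 2. In AAV-GFP 3, with 243 Csf1 counts and 0 Il34 counts, Csf1 was at least 30.05-fold higher per kb at the floor of 3 counts. Of the 33 macrophage and microglia markers described below, 23 had a higher mean per kb than Csf1 and 24 a higher one than Il34.

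No pair of the 3 genes was correlated past an adjusted p of 0.05 over the 7 libraries. On log2 CPM, Csf1r and Csf1 gave Pearson r = -0.075 (exact permutation p = 0.868, adjusted 0.868 over the 3 pairs) and Spearman rho = -0.18 (p = 0.713, adjusted 0.906). Csf1r and Il34 gave r = 0.74 (exact permutation p = 0.0690, adjusted 0.207) and rho = 0.21 (p = 0.662, adjusted 0.906). Csf1 and Il34 gave r = -0.29 (exact permutation p = 0.466, adjusted 0.699) and rho = -0.071 (p = 0.906, adjusted 0.906). Without the 2 libraries farthest from the median of the first gene the r values were 0.64, 0.37 and 0.37. Both pairs with Csf1r then lacked AAV-GFP 3 and AAV-GSTA4 3, and the ligand pair lacked AAV-GFP 1 and 3. With 3 and 4 libraries, no r was computed within a group.

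Reads at the Csf1r locus can be shared with its neighbours. Hmgxb3, on the opposite strand, overlaps it over 873 exon bases, 15.1% of the Csf1r exon bases, and the strand setting of the counting is not given in the sources used here. Hmgxb3 had 19.9 CPM ± 6.53 (SD, n = 3) after AAV-GFP and 19.6 ± 8.70 (SD, n = 4) after AAV-GSTA4. Csf1r had at least 4.63 times its counts in every library, and its r with Csf1r was -0.27. Pdgfrb, which encodes the beta receptor for platelet-derived growth factor, ends 15536 bases before the Csf1r start on the same strand and shares no exon base with it. Csf1r had 8.36 to 33.03 times the Pdgfrb counts.

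CSF1R belongs to the class III receptor tyrosine kinases with KIT, FLT3 and the PDGF receptors. A list of 17 genes held these relatives and their ligands, the granulocyte and granulocyte-macrophage colony-stimulating factors with their receptors, and Ptprz1 and Sdc1, which encode other binding partners of IL-34. Of its 15 members tested, 0 passed the adjusted threshold in either direction, 7 had coefficients above 0 and 8 below, and the median log2 fold change was -0.14 against -0.07 for all genes. With library totals 5 were above 0 and 10 below, where 11438 of all 15075 genes were below. Without AAV-GFP 3 the numbers were 4 and 11, where 7726 of all genes were above 0 and 7611 below. The groups did not overlap for 3 of the 15, against 12% of all genes. The cytokine genes Csf2 and Csf3 were too low to be tested, at 0.517 CPM or less in every library.

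Pdgfrb had 8.76, 11.9 and 3.84 CPM in AAV-GFP 1 to 3 and 17.6, 34.7, 17.5 and 13.6 CPM in AAV-GSTA4 1 to 4. The groups did not overlap, and the log2 fold change was 1.35 ± 0.46 (SE) with adjusted p = 0.364 (edgeR). Its profile was not that of Csf1r: its highest library, AAV-GSTA4 2, was the lowest of its group for Csf1r. Kit, the stem cell factor receptor that melanocytes and mast cells carry, stood at 7.79 ± 0.541 (SD, n = 3) against 14.6 ± 2.80 CPM (SD, n = 4), with a log2 fold change of 0.90 ± 0.28 (SE) and adjusted p = 0.363 (edgeR). With library totals its log2 fold change was 0.59. Kitl, its ligand, lay lower after AAV-GSTA4 without overlap, at 13.6 ± 5.89 (SD, n = 3) against 7.21 ± 0.732 CPM (SD, n = 4), with a log2 fold change of -0.92 ± 0.34 (SE) and adjusted p = 0.375 (edgeR). Kitl moved to -0.51 without AAV-GFP 3.

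The genes of the alternative IL-34 receptors overlapped between the groups. Ptprz1, a receptor phosphatase of glia, had 14.7 to 28.7 CPM after AAV-GFP and 7.16 to 20.8 CPM after AAV-GSTA4, with a log2 fold change of -0.60 ± 0.41 (SE). Sdc1, a cell-surface proteoglycan of epithelia, had 13.4 to 30.8 CPM and 4.53 to 41.8 CPM, with -0.32 ± 0.66 (SE). Per kb, Ptprz1 averaged 1.16 CPM and Sdc1 5.17 CPM over the 7 libraries, so Csf1r, at 60.0 CPM per kb, was the most abundant of the 3 receptors by far. Il34 itself, at 1.25 CPM per kb over the 7 libraries, lay close to Ptprz1. All 17 listed genes had a lower mean level per kb than Csf1r.

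**Figure D2:**
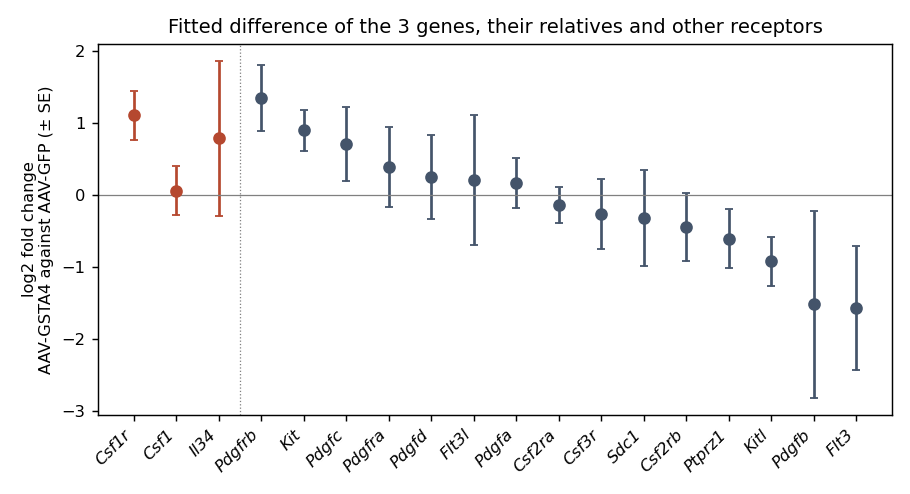
Fitted log2 fold change, AAV-GSTA4 against AAV-GFP, of Csf1r, Csf1 and Il34 (left of the dotted line) and of the 15 related receptors and ligands tested, with standard errors as bars. Csf1r lies at 1.11 and Pdgfrb at 1.35, Csf1 lies at 0.06, and the bar of Il34 spans 0.

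A list of 30 genes for signalling below CSF1R (adaptors, PI3-kinase subunits, SRC-family kinases, STATs, MAP kinases, phosphatases and the sheddase Adam17) gave 0 past the adjusted threshold in either direction. Of these, 14 coefficients were above 0 and 16 below with TMM. With library totals 8 were above 0, as were 3637 of all 15075 genes. The median log2 fold change with TMM lay 0.07 above that of all genes. The groups did not overlap for 3 of the 30, again against 12% of all genes. Gab2, a docking protein for PI3-kinase, was higher in every AAV-GSTA4 library, at 19.8 ± 12.8 (SD, n = 3) against 46.5 ± 10.4 CPM (SD, n = 4), with a log2 fold change of 1.23 ± 0.45 (SE) and adjusted p = 0.374 (edgeR). Socs1, a feedback inhibitor of cytokine signalling, was low and lower after AAV-GSTA4, at 1.78 ± 1.83 (SD, n = 3) against 0.400 ± 0.221 CPM (SD, n = 4). Its log2 fold change was -2.14, and -0.85 without AAV-GFP 3.

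Genes of this list with high CPM did not separate the groups. Akt2, a kinase below PI3-kinase, had 99.7 CPM ± 27.9 (SD, n = 3) and 133 CPM ± 21.6 (SD, n = 4). Stat3 had 81.2 CPM ± 18.5 (SD, n = 3) and 97.3 CPM ± 8.04 (SD, n = 4). Tyrobp, which encodes the myeloid adaptor DAP12, had 104 CPM ± 51.2 (SD, n = 3) and 79.6 CPM ± 15.02 (SD, n = 4).

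Transcription factors listed for the myeloid lineage, several of which bind the Csf1r gene in macrophages, mostly had coefficients of the opposite sign to Csf1r. Of 10 tested, 0 passed the adjusted threshold. Coefficients were above 0 for 2 and below 0 for 8, where 55.4% of all genes tested were below 0. With library totals 9 were below 0, as were 11438 of all 15075 genes. The median log2 fold change with TMM was -0.47, or -0.17 without AAV-GFP 3. The groups did not overlap for 2 of the 10, both lower after AAV-GSTA4, where 5.61% of all genes were. Spi1, which encodes the macrophage master regulator PU.1, had 4.10, 3.82 and 3.99 CPM in AAV-GFP 1 to 3. In AAV-GSTA4 1 to 4 it had 3.26, 1.73, 2.00 and 3.36 CPM, below every AAV-GFP library. Its log2 fold change was -0.62 ± 0.46 (SE) with adjusted p = 0.609 (edgeR). Klf4 also lay lower without overlap, at 8.505 ± 1.09 (SD, n = 3) against 3.11 ± 1.90 CPM (SD, n = 4). Its log2 fold change was -1.44 ± 0.47 (SE) with adjusted p = 0.363 (edgeR). The samples are bulk tissue, so the cells that made Klf4 and the other listed factors are not known.

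Markers of macrophages and microglia were set beside Csf1r in the same libraries. All 33 were tested, none was at 0 in every library, and 0 passed the adjusted threshold in either direction. Coefficients were below 0 for 32 of 33, against 55.4% of all genes tested. With library totals they were 32 of 33 again, against 11438 of all 15075 genes, and with TMM the list's median log2 fold change was -0.44. That these genes were lower was part of the choice of Csf1r, so the count is a description. The groups did not overlap for 4 of the 33 (Aif1, Adgre1, C1qc and Fcgr1). All 4 were lower after AAV-GSTA4, where 5.61% of all genes tested were lower without overlap. Adgre1, which encodes the macrophage antigen F4/80, was at 26.4 ± 6.08 (SD, n = 3) against 16.6 ± 2.98 CPM (SD, n = 4). Aif1, the microglial protein IBA1, was at 15.7 ± 6.88 (SD, n = 3) against 7.62 ± 2.12 CPM (SD, n = 4). The most abundant member, the lysozyme gene Lyz2, overlapped widely, at 1779 ± 1098 (SD, n = 3) against 1574 ± 823 CPM (SD, n = 4).

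The level of Csf1r exceeded that of most macrophage genes in the same tissue. Per kb of exon, 29 of the 33 markers had a lower mean than Csf1r, and those with a higher one were Lyz2, Ctss, C1qb and Fcer1g. Among 34 genes, the markers and Csf1r, Csf1r ranked 6, 10 and 10 from the top in AAV-GFP 1 to 3. In AAV-GSTA4 1 to 4 it ranked 3, 5, 3 and 3. The median of the list was 4.10 CPM per kb, against 60.0 for Csf1r. Ranks and ratios per kb depend on the exon unions, which had 18313 bases for Ptprc and 5774 for Csf1r. Markers of these cells differed widely in level, and those named next were chosen after their values were seen. Cd74 averaged 42.0 CPM per kb, Fcer1g 63.6 and Fcgr3 17.9. Cx3cr1, the fractalkine receptor of microglia, averaged 0.868 CPM per kb, Ptprc (CD45, on all leukocytes) 0.8285, Itgam (CD11b) 2.03, P2ry12 2.57, Tmem119 3.75 and Adgre1 6.41. Csf1r stood above Adgre1 in every library, by 2.17 to 6.49 times per kb after AAV-GFP and by 8.45 to 22.3 times after AAV-GSTA4. Against Cx3cr1 the ratios were 15.98 to 127 and 58.3 to 145. Csf1r was chosen as higher and macrophage genes as lower after AAV-GSTA4. Group differences in these ratios and ranks are therefore a description.

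**Figure D3:**
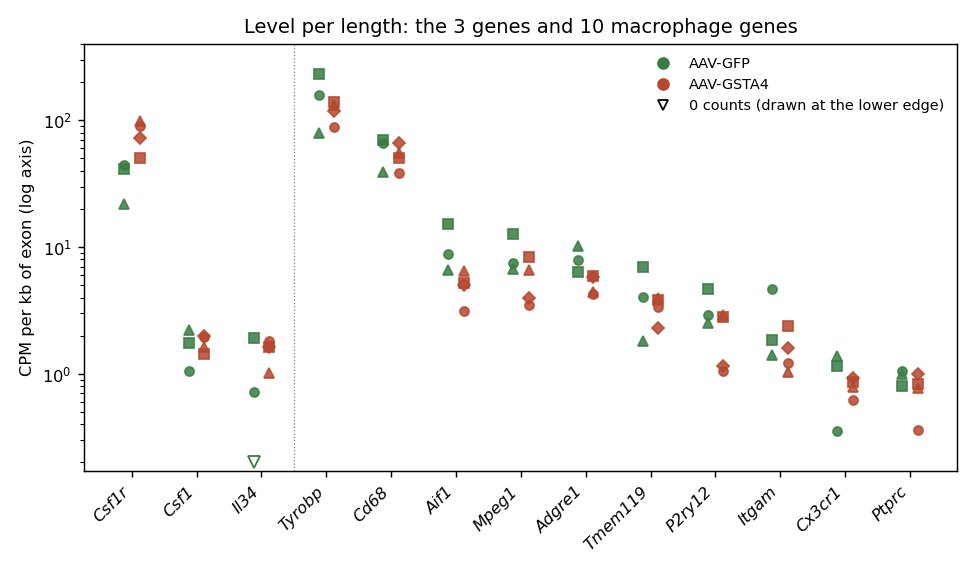
CPM per kb of exon (log axis) of Csf1r, Csf1, Il34 and 10 macrophage genes, 1 marker per library, with AAV-GFP in green, AAV-GSTA4 in red and shapes for replicate numbers as in the plot of the 3 genes by library. Csf1r, at 22.0 to 98.3, lies around Cd68, at 38.3 to 70.5, and above the other macrophage genes drawn but Tyrobp in all 7 libraries. Lyz2, Ctss, C1qb and Fcer1g, whose mean levels were above that of Csf1r, are not drawn.

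Csf1r counts per macrophage transcript differed between the libraries more than Csf1r itself. Divided by the summed counts of the 33 markers, Csf1r gave 0.0594, 0.0710 and 0.0863 in AAV-GFP 1 to 3. In AAV-GSTA4 1 to 4 it gave 0.369, 0.114, 0.244 and 0.112. Every AAV-GSTA4 library was above every AAV-GFP library, and within AAV-GSTA4 the ratio varied more than 3-fold. Both parts of this ratio were used in choosing Csf1r, so the separation is again a description. The summed level of the whole list ran from 1470 to 4351 CPM after AAV-GFP and from 1411 to 3766 CPM after AAV-GSTA4, so the groups overlapped.

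Across libraries, the level of Csf1r was set against the RPE and macrophage markers. The points share library and scaling, so the correlations below are descriptions over 7 libraries. With the summed level of 16 RPE markers, Csf1r gave Pearson r = 0.94 on log2 values. It was 0.91 after each group's mean was subtracted, which removes the difference on which the gene was chosen, and 0.84 when AAV-GFP 3 was also left out. With the summed macrophage markers r was 0.058, 0.37 after subtraction of the group means, and -0.35 when AAV-GFP 3 was also left out. Gene by gene, 13 of 15 RPE markers averaging a log2 CPM of 2 or more had an r above 0 with Csf1r, with a median of 0.88, where the median over all 11109 genes compared was 0.057. Of 27 macrophage markers at that level 9 had an r above 0, and the median was -0.21. After subtraction of the group means, 14 of 15 RPE markers and 18 of 27 macrophage markers had an r above 0, with medians of 0.81 and 0.34. With the group means subtracted and AAV-GFP 3 left out, a setting chosen after the data were seen, 12 of 15 RPE markers and 3 of 27 macrophage markers had an r above 0, with medians of 0.68 and -0.29, so the sign for macrophage markers turned on that library.

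**Figure D4:**
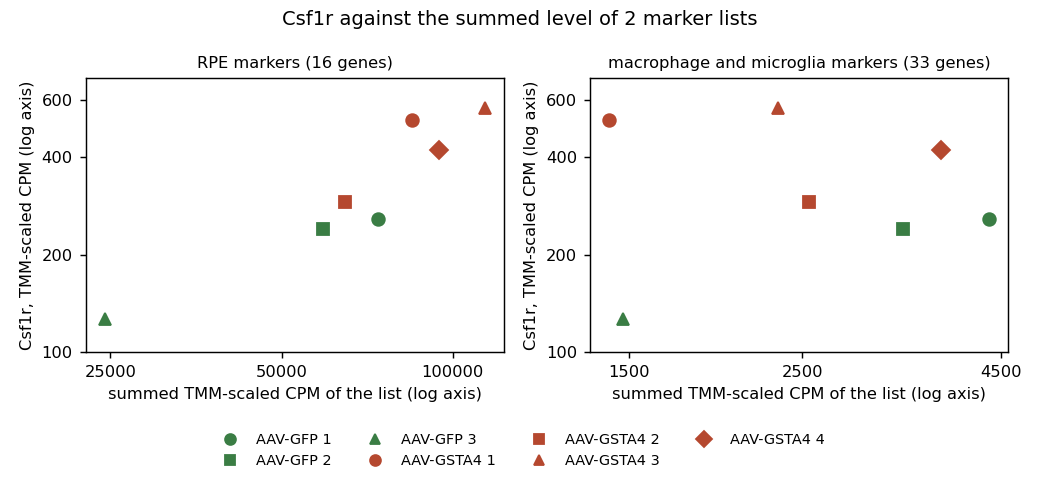
Csf1r in TMM-scaled CPM against the summed level of 16 RPE markers (left) and 33 macrophage and microglia markers (right), log axes, 1 marker per library. Csf1r climbs with the RPE sum, from AAV-GFP 3 at 127 CPM to AAV-GSTA4 3 at 568 CPM, and shows no such order with the macrophage sum.

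The RPE markers varied among themselves in their likeness to Csf1r. Rlbp1, which encodes the retinoid carrier CRALBP, had r = 0.99 over the 7 libraries, Rdh5, a retinol dehydrogenase, 0.99, Mertk, the receptor for engulfing outer segments, 0.98, Lrat, which esterifies retinol, 0.97, and Rgr, a retinal opsin, 0.96. The transcription factor gene Otx2 followed with 0.92, Trpm3 and Mitf with 0.88, Ttr with 0.85 and Rpe65, the visual cycle isomerase, with 0.84. The lactate transporter gene Slc16a8 had 0.71. The pigment genes ranged from Tyr, which encodes tyrosinase, at 0.78, through Dct at 0.18 and Tyrp1 at -0.0045, to Pmel at -0.59. Without AAV-GFP 3 the first 4 genes had 0.99, 0.99, 0.97 and 0.93 and Rpe65 had 0.57. In the same 6 libraries Tyr had 0.29, Dct -0.71, Tyrp1 -0.92 and Pmel -0.97. The markers that fall outside the naming rule are given so that the list is complete.

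The 5 genes most like Csf1r among 11109 were Inpp5k, Cltb, Trf, Mtus1 and Cpxm2, with r from 0.99 to 1.00 over the 7 libraries, and from 0.98 to 0.99 after subtraction of the group means. Trf, which encodes the iron carrier transferrin, an abundant transcript of the mouse RPE, had 21104 CPM ± 7012 (SD, n = 3) after AAV-GFP and 44404 CPM ± 10392 (SD, n = 4) after AAV-GSTA4. Its log2 fold change of 1.07 ± 0.42 (SE) came with adjusted p = 0.383 (edgeR). Inpp5k, an inositol phosphatase gene, had 1409 CPM ± 538 (SD, n = 3) and 2922 CPM ± 750 (SD, n = 4), with 1.05 ± 0.38 (SE) and adjusted p = 0.373 (edgeR). With library totals in place of TMM, 2 of the 5 stayed among the 5 most alike. By Spearman's rho 0 did.

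**Figure D5:**
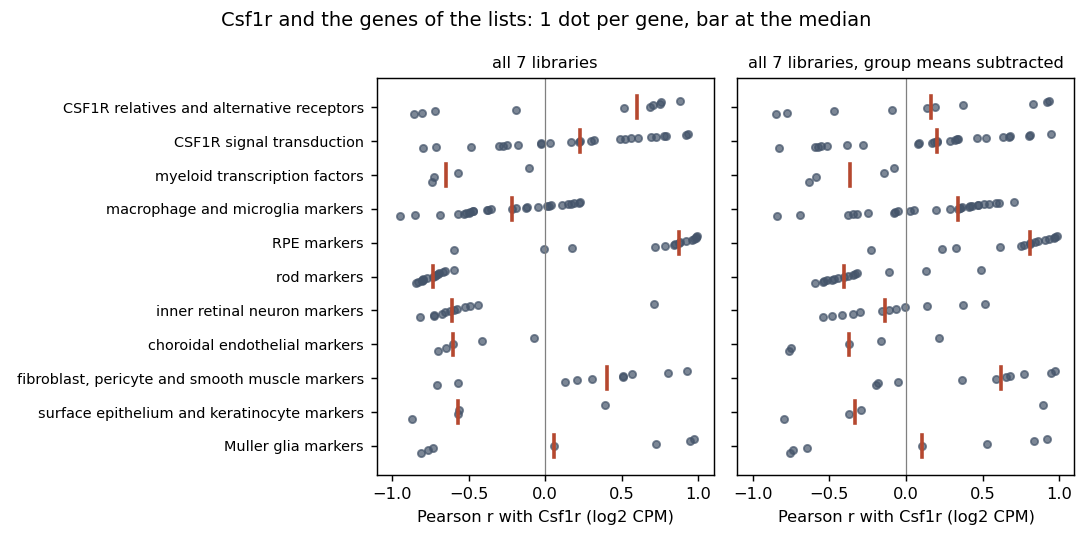
Pearson r of log2 CPM between Csf1r and each listed gene averaging a log2 CPM of 2 or more, over all 7 libraries as measured (left) and with each group's mean subtracted (right), 1 dot per gene and a red bar at the median. RPE markers lie mostly to the right in both panels, with medians of 0.88 and 0.81, and macrophage markers spread around 0, with medians of -0.21 and 0.34.

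Most RPE markers, like Csf1r, had higher values after AAV-GSTA4. Of 16 tested, 0 passed the adjusted threshold (edgeR), 13 coefficients were above 0 and 3 below, and the median log2 fold change was 0.64. The groups did not overlap for 5 of the 16, all higher after AAV-GSTA4, where 6.44% of all genes were. The list's median was 0.30 without AAV-GFP 3. Mertk was at 43.7 ± 22.5 (SD, n = 3) against 107 ± 38.1 CPM (SD, n = 4), with a log2 fold change of 1.29 ± 0.43 (SE) and adjusted p = 0.363 (edgeR). Lrat was at 1315 ± 553 (SD, n = 3) against 2913 ± 551 CPM (SD, n = 4), with 1.15 ± 0.37 (SE) and adjusted p = 0.363 (edgeR). DESeq2 called Lrat higher, with a log2 fold change of 1.16 and adjusted p = 0.0425 (DESeq2). The summed level of the RPE markers ran from 24415 to 73943 CPM after AAV-GFP and from 64751 to 114046 CPM after AAV-GSTA4.

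Relative to RPE transcripts, Csf1r differed less. Per 1000 counts on the 16 RPE markers it had 3.49, 4.04 and 5.20 counts in AAV-GFP 1 to 3 and 6.14, 4.49, 4.98 and 4.45 in AAV-GSTA4 1 to 4. The groups overlapped, and AAV-GFP 3 was above 3 of the AAV-GSTA4 libraries. On average there were 4.25 ± 0.868 (SD, n = 3) Csf1r counts after AAV-GFP and 5.01 ± 0.788 (SD, n = 4) after AAV-GSTA4. With the RPE share of counts as a covariate, chosen after the data were seen, the fitted log2 fold change of Csf1r was 0.54 ± 0.22 (SE). With the macrophage share as a covariate it was 1.23 ± 0.40 (SE). The part of RPE content in the Csf1r difference was not tested beyond these values.

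The summed markers of rods, inner retinal neurons and Muller glia separated the groups, whereas the RPE sum overlapped. All 15 rod markers had coefficients below 0, with a median log2 fold change of -1.25 and summed levels of 16495 to 42794 CPM after AAV-GFP and 8024 to 14808 CPM after AAV-GSTA4. With the rod share as a covariate the log2 fold change of Csf1r was 0.63 ± 0.45 (SE) and that of Il34 turned to -0.79 ± 1.95 (SE). Inner retinal neurons, a known source of IL-34, had 14 of 16 marker coefficients below 0, with a median of -0.92, where Il34 had 0.79 ± 1.07 (SE). Summed levels of inner neuron markers were 1774 to 2367 CPM and 930 to 1645 CPM. Choroidal endothelial markers had a median of -0.80, which turned to 0.07 without AAV-GFP 3, with 6 of 11 coefficients above 0. Neutrophil and lymphocyte markers went from -0.15 to -0.53 without it, and fibroblast and mural cell markers from -0.30 to -0.52. Surface epithelium and keratinocyte markers had -0.83 with it and -0.88 without it, and Muller glia markers -0.15 and -0.04. Rod and inner neuron markers stayed at -0.78 and -0.71 without it. The summed Muller glia markers, led by Apoe, Clu, Dkk3 and Glul, some of which other cells of the eye also make, did not overlap, at 7504 to 10954 CPM and 14582 to 19988 CPM. The r of this sum with Csf1r was 0.97, and 0.81 with group means subtracted and AAV-GFP 3 left out. The RPE sum gave 0.94 and 0.84. Gene by gene, 4 of 7 Muller glia markers had an r above 0 with Csf1r, with a median of 0.058. Of the 8 tested, 4 coefficients were above 0 and 4 below. In none of these lists did a gene pass the adjusted threshold in edgeR. DESeq2 called 4 rod markers lower (Pdc, Gngt1, Nrl and Rcvrn), the corneal keratin gene Krt12 lower and Clu higher. It called 167 of all 19859 genes with a count, which include genes too low for the edgeR test. The part of these cell types in the results for the 3 genes was not tested.

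The ligands had other companions than the receptor. The 5 genes most like Csf1 over the 7 libraries were Zkscan17, Ehmt1, Cherp, Exosc10 and Zfp414, with r from 0.95 to 0.97, and from 0.94 to 0.96 without AAV-GFP 3. Their log2 fold changes between the groups ran from -0.02 to 0.14. Among those most like Il34 were Slc25a28, Nwd1, Scyl3 and Bloc1s6, each with r of 0.98. Without AAV-GFP 3, where Il34 had 0 counts, their r ranged from 0.55 to 0.83. The likeness of Il34 to RPE markers also rested on that library: the median r was 0.74 with it and -0.10 without it, and that with the summed RPE markers went from 0.83 to -0.31. Csf1 had a median r of -0.40 with RPE markers over 7 libraries and 0.16 without AAV-GFP 3.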

How the data were processed

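Polyadenylated RNA of the RPE was made into full-length cDNA with a template-switching kit and fragmented by transposase, per the labels' protocols. The authors deposited 1 table of raw read counts per gene symbol for 7 libraries. The submitters' processing notes name STAR 2.7.1a, featureCounts 1.6.2, GRCm38 and GRCh38. The annotation, strand and multi-mapping settings are not given in the sources used here. PCR copies were counted as reads, since the kit adds no molecular tags. A repeated symbol kept each row, 26 extra rows in all.

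Columns were matched by library name, and replicates carry their title numbers. Counts were fitted with edgeR 4.0.16 (R 4.3.3; quasi-likelihood, TMM, default expression filter, robust, group only), with Benjamini-Hochberg adjustment over 15075 genes. It was tested on simulated data. Log2 CPM used a prior count of 2. Exon lengths are unions from GENCODE M21. Limma 3.58.1 (voom) and DESeq2 1.42.0 were alternatives. Whether equal replicate numbers pair animals is not given in the sources used here, so the main fit used no block.

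The members, the 12 lists and the tests were chosen with earlier results of these data known. Genes were named by rule: the 3 members, their relatives, the 4 most abundant and the non-overlapping genes of the other lists, and the 5 most alike per member; lists of other cell types are given by counts and levels. A few genes under this rule are not reported here.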

Additional observations from a re-analysis of the deposited data

How the results depend on the processing

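Genes past the adjusted threshold numbered 0 in the main edgeR fit, 167 in DESeq2, 145 with the macrophage share as covariate, 1 with the rod share and 1 with each replicate block (by title number and by library name number), and from 0 to 1 when each library was left out (1 without AAV-GSTA4 replicate 3). Of the listed genes with a count, 7 of 183 passed in DESeq2, against 167 of all 19859 genes with a count. The edgeR filter kept 179 of the listed genes and 15075 of all, so low genes weigh more in the latter share. With the macrophage share 10 of 179 passed, against 145 of all 15075. With the block the log2 fold change was 1.14 and 1.33 for Csf1r and 1.81 and 1.72 for Il34, and it changed no sign of the 3 members. Deviations of equally numbered libraries from their group means correlated at -0.13 to 0.01.

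The log2 fold change of Csf1r ran from 0.54 (RPE share covariate) to 1.33 in the alternatives. It was from 0.85 to 1.30 with a library left out. Csf1r was chosen as higher in these same libraries, so its sign above 0 in these refits is a description. Csf1 was 0.68 with the rod share, -0.29 with library totals, -0.058 with the macrophage share, and from -0.18 to 0.31 with a library left out. Il34 was -0.79 with the rod share and from 0.20 to 2.09 with a library left out; it has no value under the minimum of 10 counts. With a library left out, r ranged from -0.36 to 0.53 for Csf1r and Csf1, from 0.05 to 0.85 for Csf1r and Il34, and from -0.58 to 0.81 for the ligands. The log2 difference in Csf1r per macrophage transcript, 1.37, became 0.25 per RPE transcript and ran from 1.03 to 1.605 with a library left out. Of the 5 genes most like each member, library totals kept 2 for Csf1r, 2 for Csf1 and 1 for Il34, Spearman's rho 0, 0 and 1, and a prior count of 0.5 kept 3 for Il34. The causes were not tested. At 0 to 98 counts, depth limits Il34.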
